A study of Homo sapiens with 10 samples.

Results

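The genes described here are the core of the Hippo pathway: the kinases STK3 (MST2), STK4 (MST1), LATS1 and LATS2, the co-activators YAP1 and WWTR1 (whose product is called TAZ), and the 4 DNA-binding partners TEAD1 to TEAD4. They were chosen by gene name from the deposited count table, and all 10 were found, each in 1 row, among 40664 gene rows. The cells were hTERT RPE-1, an established human line of retinal pigment epithelial origin that grows indefinitely because it carries telomerase (hTERT). Every group therefore shared the same telomerase-immortalised background. Cells on a substrate of 10 kPa (soft) or 120 kPa (stiff) were controls or received siNemp1, which lowers by RNA interference the transcript of NEMP1, a gene for a nuclear envelope protein. There were 2 control and 2 siNemp1 libraries at 10 kPa, and 3 of each at 120 kPa. The sources used here do not give the treatment of the control cells, the siRNA sequence or the times on the substrate. Nothing in the labels states that replicates came from separate cultures, so p-values measure only how these libraries vary, which may be technical variation.

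In the Hippo pathway STK3 and STK4 phosphorylate and activate LATS1 and LATS2, which in turn phosphorylate YAP and TAZ and keep them in the cytoplasm or mark them for degradation. Unphosphorylated YAP and TAZ enter the nucleus and bind TEAD proteins, which recognise a short DNA motif, to switch on genes of growth and adhesion. Stiff substrates are known to favour nuclear YAP and TAZ in many adherent cells, and most of this control acts on the proteins and their location. The libraries measured transcripts, so activity and location of these proteins were not measured.

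Estimated counts per library, in units of 1e+06, totalled between 17.9 and 23.8. NEMP1 served as the check of the labels: it lay between 14.0 and 18.3 CPM (counts per 1e+06 counts of the library, after TMM scaling) in the 5 control libraries and between 4.11 and 8.22 CPM in the 5 siNemp1 libraries. All 10 Hippo genes passed the filter on low counts, with between 68 counts (TEAD3) and 1864 counts (WWTR1) in a library. Marker genes were judged by their mean over the 10 libraries. Of 7 epithelial markers, KRT7, KRT8 and KRT18 averaged above 1 CPM while KRT19, EPCAM, CDH1 and CLDN4 (0.294 to 1.46 CPM) averaged below it. Of 10 retinal pigment epithelium markers, 5 averaged above 1 CPM, led by MITF, and RPE65, RLBP1, TYR, TTR and SERPINF1 (0.197 to 1.40 CPM) below it. All 4 endothelial markers averaged below 1 CPM, although KDR (0.505 to 1.69 CPM) was above it in 2 libraries. Of 4 leukocyte markers 2 averaged above 1 CPM, CD68 (492 to 1166 CPM) and PTPRC (mean 1.12 CPM, at least 1 CPM in 5 libraries), and CD3E was at most 0.220 CPM. Of 7 fibroblast markers 4 averaged above 1 CPM, led by THY1, and COL3A1 was at 0. The siNemp1 library numbered 3 at 120 kPa stood apart for these genes: it held the highest level of LATS2, STK4, TEAD3 and TEAD4 and the lowest of WWTR1 and TEAD2, 6 of the 20 highest and lowest values. It also had the lowest share of counts from mitochondrial genes, 0.709% against 0.826% to 1.73% elsewhere. Several of the results that rest on it, though not all, are given with and without it.

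Windows at the starts of YAP1 and LATS2 hold the letters of the TEAD motif, and they are shown because no other window of a member held them. RefSeq promoter windows on GRCh38.p14, from 250 bases before to 50 after a start site, were matched by symbol for 7 of the 10 genes (10 windows). The letters GGAATG, searched on both strands, occurred in 1 window of YAP1 and 1 of LATS2, and in none of the windows of WWTR1, TEAD2, TEAD3, LATS1 and STK4. Of all 35116 such windows 14.0% held them, beside 2 of the 10 windows of members, so the matches do not set these genes apart. The match began 162 bases before the YAP1 start site and at base 10 after the LATS2 start site. It is printed in capitals within 30 bases, read along the gene's strand, for YAP1 (chr11:102110273-102110302, plus strand) and LATS2 (chr13:21061560-21061589, minus strand).
YAP1: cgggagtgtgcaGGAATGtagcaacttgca
LATS2: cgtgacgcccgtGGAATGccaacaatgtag
The full 250 bases before the YAP1 start site (chr11:102110197-102110446, plus strand) put this match, again in capitals, among long runs of G and C.
YAP1 upstream: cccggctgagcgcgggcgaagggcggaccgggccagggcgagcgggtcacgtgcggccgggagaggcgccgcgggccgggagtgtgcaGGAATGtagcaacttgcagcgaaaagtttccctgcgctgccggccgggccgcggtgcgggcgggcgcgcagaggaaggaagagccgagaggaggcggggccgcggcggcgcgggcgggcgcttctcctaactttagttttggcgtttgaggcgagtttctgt
A match to these letters is a description of the sequence, and binding there was not measured.

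TAZ was the more abundant co-activator transcript in all 10 libraries, and TEAD1 the most abundant TEAD transcript where median transcript lengths were used. To compare genes, CPM was divided by the median length of a gene's protein-coding transcripts in GENCODE 29. On this scale WWTR1 lay at 33.5 ± 4.35 CPM per kb (mean ± SD over all 10 libraries) and TEAD1 at 17.8 ± 2.54. The ranges of these 2 genes did not overlap each other or those of any other member. STK4 (9.12 ± 0.912), YAP1 (8.64 ± 0.699) and STK3 (8.19 ± 1.04) followed, with ranges that overlapped between neighbours, as did those of STK3 and TEAD4 (6.17 ± 1.44). The lowest were TEAD2 (3.10 ± 0.377), LATS1 (2.68 ± 0.382), TEAD3 (2.10 ± 0.490) and LATS2 (1.36 ± 0.217), each overlapping the next. The kinases that act directly on YAP and TAZ were thus measured well below the kinases that activate them. The order depends on the transcript length assumed. With the longest transcript in place of the median WWTR1 still came first (14.0 CPM per kb), but STK4 (8.86) and STK3 (7.45) came next, and TEAD1 (6.44) and YAP1 (6.14) after them. On that scale TEAD4 was above TEAD1 in 4 of the 10 libraries.

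Within single libraries, where the scaling between libraries has no part, the ratio of WWTR1 to YAP1 per kb ran from 2.83 to 4.45. It was 4.18 and 3.98 in control and 4.31 and 4.06 in siNemp1 cells at 10 kPa. At 120 kPa it was 3.76, 3.90 and 3.55 in control and 3.88, 4.45 and 2.83 in siNemp1 cells, the last value from the library numbered 3. The siNemp1 libraries at 120 kPa thus held both the highest and the lowest ratio. TEAD1 made up between 54.4% and 70.4% of the 4 TEADs per kb, TEAD4 between 14.1% and 27.4%, TEAD2 between 7.87% and 12.6%, and TEAD3 between 5.02% and 10.2%. With the longest transcripts the TEAD1 share was between 32.1% and 48.7%. All 4 groups overlapped in the TEAD1 share.

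**Figure D1:**
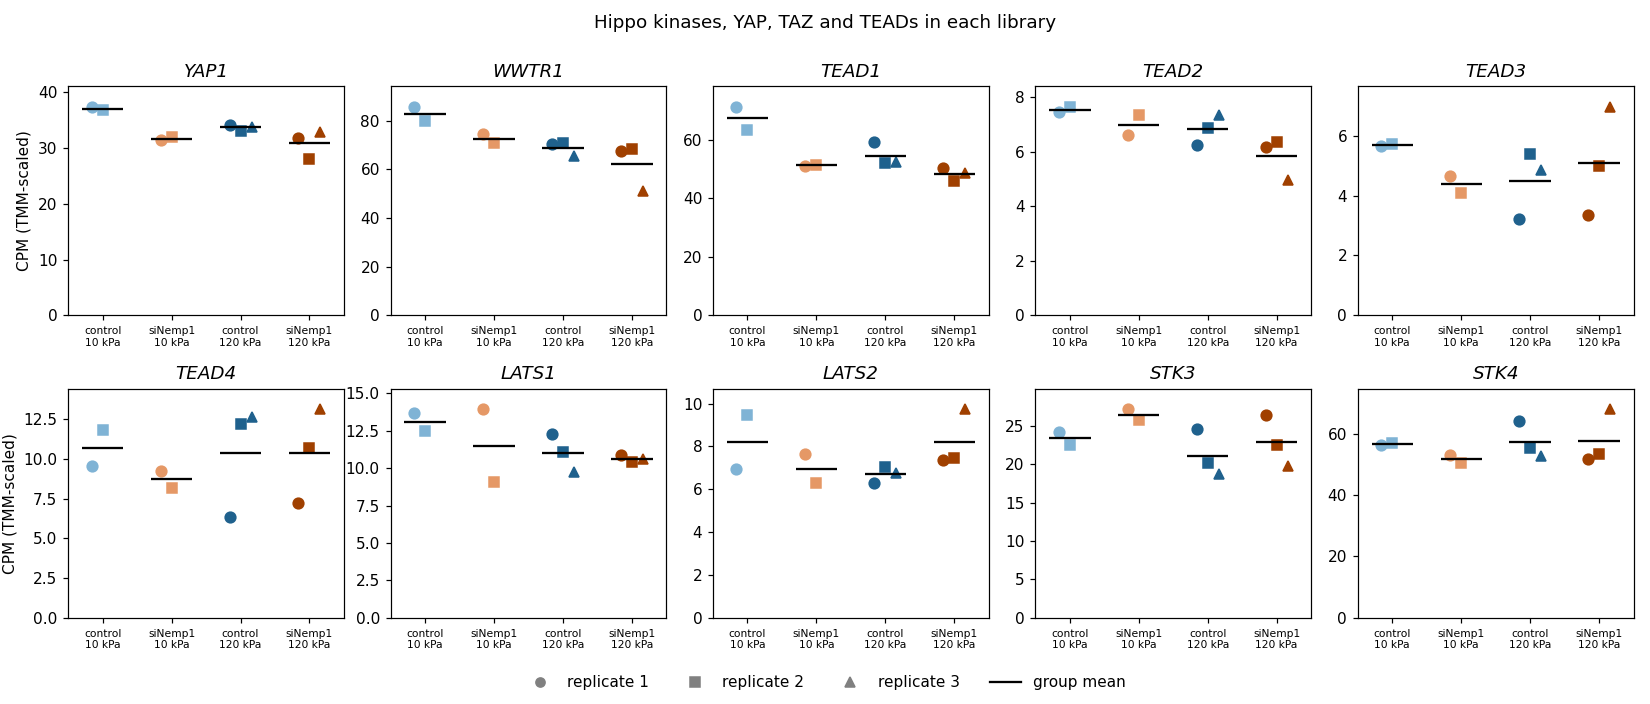
TMM-scaled CPM (vertical axis, from 0, a separate scale per gene) of the 10 genes in the 10 libraries, by group (horizontal axis), with marker shapes for replicate numbers and black lines for group means. TEAD1 and YAP1 are lower in siNemp1 than in control at each stiffness, and TEAD3 and TEAD4 are lowest in the 120 kPa libraries numbered 1.

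The first question was whether NEMP1 knockdown changes transcripts of the pathway itself. TEAD1 was the member with the largest change when averaged over both stiffnesses, lower in siNemp1, and it passed in some of the fits only. YAP1 was also lower in every siNemp1 library than in every control library, by a smaller amount that did not pass. No kinase passed in any fit. In the fit of all 10 libraries, the quasi-likelihood test of edgeR (Benjamini-Hochberg adjusted p) called 0 of the 10 genes at 120 kPa, at 10 kPa or on average. Over all 13990 genes tested it called 0% at 120 kPa, 0% at 10 kPa and 1.29% on average (180 genes). NEMP1, the targeted gene, was itself not called at 120 kPa (log2 change −1.34 ± 0.22, adjusted p = 0.057 by edgeR) or at 10 kPa (−0.98 ± 0.27, 0.80). On average NEMP1 was called (−1.16 ± 0.18, 0.044). A gene not called at a single stiffness in this fit is therefore not shown to be unchanged. At an unadjusted p under 0.05 the fit had 0, 1 and 1 of the 10 genes in these comparisons, TEAD1 in both cases, against 2413, 850 and 2763 of all genes. DESeq2 called 642, 17 and 967 of all genes. At 120 kPa, libraries with the same replicate number deviated together, so the fit with that number as a block is given where it changes a call. This fit gave each number the same effect at both stiffnesses, although same-numbered libraries did not deviate together at 10 kPa. It called 8.75% of all genes at 120 kPa, 0.0286% at 10 kPa and 10.8% on average, and of the 10 Hippo genes 0, 0 and 1. The median log2 change over the 10 genes was −0.03 at 120 kPa, −0.21 at 10 kPa and −0.13 on average, beside 0.01, −0.00 and −0.00 over all genes tested.

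**Figure D2:**
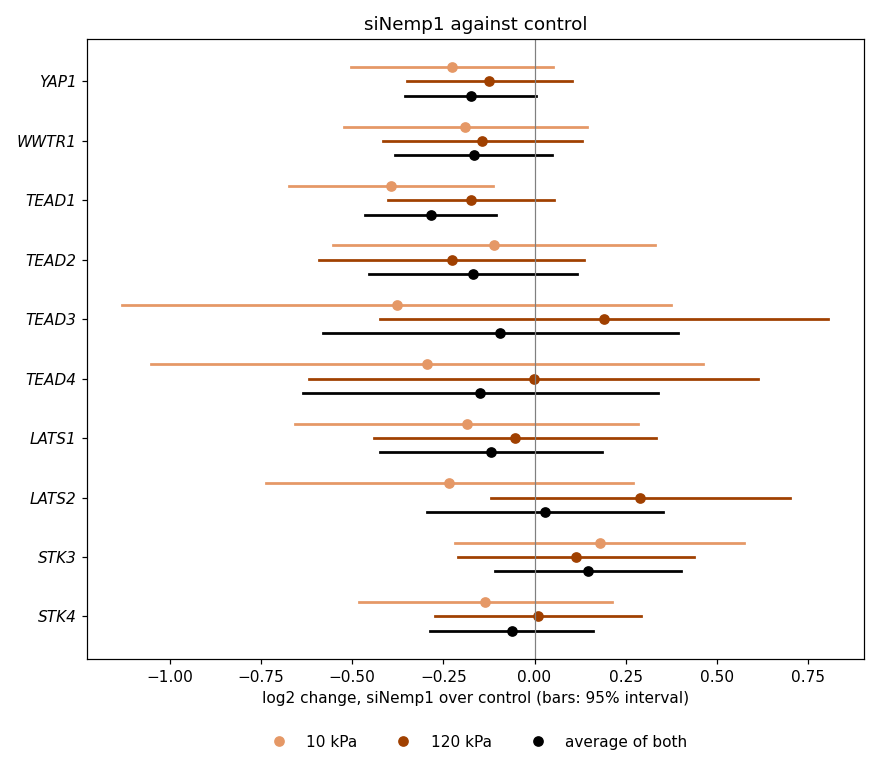
Log2 change of siNemp1 over control (horizontal axis) for each gene at 10 kPa, at 120 kPa and averaged over both, from the fit of all libraries, with 95% intervals as bars. On average only the TEAD1 interval, −0.46 to −0.10, lies wholly below 0.

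TEAD1 (ENSG00000187079, chromosome 11, 12674591 to 12944483, plus strand, GRCh38) encodes a TEAD found in many tissues. At 10 kPa it lay at 71.4 and 63.5 CPM in control and at 51.1 and 51.6 CPM in siNemp1 cells. At 120 kPa it lay at 59.3, 52.0 and 52.4 CPM in control and at 50.5, 45.9 and 48.7 CPM in siNemp1 cells. Every siNemp1 library was below every control library of the same stiffness. All 5 were also below all 5 controls, though only just (51.6 against 52.0 CPM), and with DESeq2's size factors the 2 sets overlapped (52.3 against 52.1). Of all genes tested 1.97% were lower in every siNemp1 library than in every control library. The log2 change averaged over both stiffnesses was −0.28 ± 0.08 (± SE, 95% interval −0.46 to −0.10), with an adjusted p of 0.093 by edgeR without the block. With the replicate block the change was −0.28 ± 0.07 and the adjusted p 0.034, and DESeq2, which called 9.73% of 9935 genes, gave −0.29 ± 0.10 and 0.037. TEAD1 thus fell in the blocked fit and by DESeq2, and the size of the change was nearly the same in all 3. Leaving out the pair of libraries numbered 2 at 120 kPa ended the blocked call (adjusted p = 0.071, log2 change −0.29). Without the siNemp1 library numbered 3 at 120 kPa the unblocked values were −0.30 ± 0.09 and 0.093.

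The TEAD1 difference was numerically larger on the soft substrate. At 10 kPa its log2 change was −0.39 ± 0.13 (adjusted p = 0.80 by edgeR over all libraries), and at 120 kPa −0.18 ± 0.10 (0.42). The difference between these effects, 0.22 ± 0.16 (95% interval −0.14 to 0.58), did not pass (adjusted p = 1.00), and the interval includes 0. A fit of the 4 libraries at 10 kPa alone gave −0.41 ± 0.07 and an adjusted p of 0.00050. That fit called 17.3% of 13345 genes. Its common dispersion was 0.00423, against 0.0387 over all libraries. In bulk RNA, less transcript per cell and fewer cells that express it cannot be told apart.

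YAP1 (ENSG00000137693, chromosome 11, 102110461 to 102233423, plus strand) encodes one of the paired co-activators. Controls on the soft substrate had 37.4 and 36.8 CPM of YAP1, and siNemp1 cells 31.5 and 31.9 CPM. On the stiff substrate YAP1 was at 34.2, 33.1 and 33.8 CPM in control and 31.8, 28.1 and 32.9 CPM in siNemp1 cells. The siNemp1 and control libraries did not overlap under TMM, DESeq2 or upper-quartile scaling, although the nearest values, 32.9 and 33.1 CPM under TMM, differed little. Under TMM 1.97% of all genes tested were likewise lower in every siNemp1 library than in every control library. The average log2 change was −0.18 ± 0.08 (95% interval −0.35 to 0.00, adjusted p = 0.26 by edgeR, 0.17 with the block). By stiffness it was −0.23 ± 0.13 at 10 kPa and −0.12 ± 0.10 at 120 kPa. In the fit of the 4 libraries at 10 kPa it had an adjusted p of 0.049, which was lost with upper-quartile scaling or DESeq2's size factors.

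WWTR1 (ENSG00000018408, chromosome 3, 149517235 to 149736714, minus strand), the TAZ gene, lay at 85.8 and 80.1 CPM in control and at 74.4 and 71.1 CPM in siNemp1 cells at 10 kPa. On the stiff substrate WWTR1 lay at 70.4, 70.7 and 65.7 CPM in control and at 67.7, 68.5 and 51.1 CPM in siNemp1 cells. The groups were apart at 10 kPa, where 28.5% of all genes were lower in siNemp1 without overlap. They overlapped at 120 kPa, where the low mean of siNemp1 cells rested on the library numbered 3. The average log2 change was −0.17 ± 0.10 (adjusted p = 0.38 by edgeR, 0.17 with the block). At 120 kPa it was −0.14 ± 0.12 with and −0.05 ± 0.10 without that library. At 10 kPa it was −0.19 ± 0.15 over all libraries. The fit of the 4 libraries there gave −0.20 ± 0.07 with an adjusted p of 0.034, a call lost with DESeq2's size factors. WWTR1-AS1, an RNA antisense to it, had at most 10.9 estimated counts against at least 1181 for WWTR1, and without a stated strand their reads cannot be told apart.

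Among the other TEADs, TEAD2, which is best known from the early embryo, lay at 7.46 and 7.66 CPM in control and 6.63 and 7.37 CPM in siNemp1 cells at 10 kPa. On the stiff substrate TEAD2 lay at 6.25, 6.89 and 7.37 CPM in control and 6.19, 6.36 and 4.97 CPM in siNemp1 cells. It was lower in siNemp1 in all 5 pairs of libraries with the same number, but the pair numbered 3 at 120 kPa had a ratio of 0.675 and the other 4 ratios were between 0.889 and 0.992. How many of all genes were lower in every such pair was not computed. Its average log2 change of −0.17 ± 0.13 did not pass (adjusted p = 0.51 by edgeR), nor did −0.23 ± 0.16 at 120 kPa. Without the siNemp1 library numbered 3 at 120 kPa these values were −0.13 ± 0.12 and −0.16 ± 0.16. At 10 kPa the change was −0.11 ± 0.20, and −0.03 or −0.20 without the siNemp1 library numbered 1 or 2 there.

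TEAD3, a TEAD of placenta and other tissues, had 5.66 and 5.72 CPM in control and 4.65 and 4.09 CPM in siNemp1 cells at 10 kPa. On the stiff substrate it had 3.21, 5.40 and 4.84 CPM in control and 3.34, 4.99 and 6.96 CPM in siNemp1 cells, and the groups overlapped. TEAD4 had 9.57 and 11.8 CPM in control and 9.23 and 8.18 CPM in siNemp1 cells at 10 kPa, and 6.34, 12.2 and 12.6 against 7.23, 10.7 and 13.1 CPM at 120 kPa. In both treatments the 120 kPa libraries numbered 1 were the lowest for TEAD3 and TEAD4, so replicates differed more than the treatments did. The average log2 changes were −0.09 ± 0.22 for TEAD3 and −0.15 ± 0.22 for TEAD4 (adjusted p = 0.86 and 0.76 by edgeR), and −0.25 ± 0.19 and −0.26 ± 0.21 without the siNemp1 library numbered 3 at 120 kPa. At 10 kPa they were −0.38 ± 0.34 and −0.29 ± 0.34, and at 120 kPa the 95% intervals reached from −0.43 to 0.81 and from −0.62 to 0.61. Without that library the TEAD3 change at 120 kPa was negative, −0.13 ± 0.26.

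Of the kinases, STK3 was the member that was higher in siNemp1 in all 5 same-numbered pairs, with ratios between 1.05 and 1.14. The share of all genes higher in every such pair was not computed, and at 10 kPa the pairing is by number only. Its levels were 24.2 and 22.5 CPM in control and 27.1 and 25.8 CPM in siNemp1 cells at 10 kPa. At 120 kPa they were 24.5, 20.1 and 18.7 CPM in control and 26.4, 22.4 and 19.8 CPM in siNemp1 cells. The groups did not overlap at 10 kPa, where 28.8% of all genes were higher in siNemp1 without overlap, and they overlapped at 120 kPa. The average log2 change, 0.15 ± 0.12, did not pass (adjusted p = 0.53 by edgeR, 0.31 with the block), nor did 0.18 ± 0.18 at 10 kPa and 0.11 ± 0.15 at 120 kPa.

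STK4, its paralog, had 56.5 and 57.0 CPM in control and 53.0 and 50.3 CPM in siNemp1 cells at 10 kPa. At 120 kPa it had 64.0, 55.4 and 52.6 CPM in control and 51.9, 53.3 and 67.9 CPM in siNemp1 cells. It was lower in siNemp1 in 4 of 5 same-numbered pairs and higher, by a ratio of 1.29, in the pair numbered 3 at 120 kPa. Its average log2 change was −0.06 ± 0.10 (adjusted p = 0.78 by edgeR), and −0.14 ± 0.09 without that siNemp1 library (0.39). At 10 kPa it was −0.14 ± 0.16. With STK3 higher and STK4 lower in the same libraries, the ratio of STK4 to STK3 per kb was 1.07 and 1.16 in control and 0.896 and 0.896 in siNemp1 cells at 10 kPa. At 120 kPa the ratio was 1.20, 1.26 and 1.29 in control and 0.902, 1.09 and 1.58 in siNemp1 cells. It lay below every control ratio of its stiffness in 4 of the 5 siNemp1 libraries and above them in the one numbered 3 at 120 kPa. The ratio was formed after the levels had been seen side by side and was not tested.

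**Figure D3:**
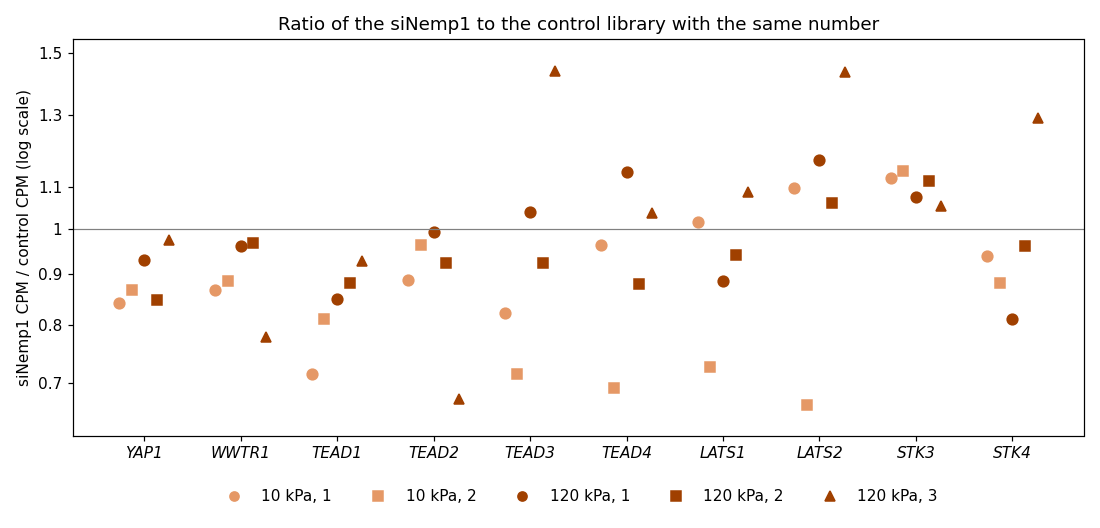
Ratio of TMM-scaled CPM in the siNemp1 library to that in the control library of the same stiffness and number (vertical axis, log scale, line at 1) for the 10 genes, with colours for stiffness and shapes for replicate numbers. YAP1, WWTR1, TEAD1 and TEAD2 lie below 1 in 5 of 5 pairs and STK3 above 1 in 5 of 5. The pair numbered 3 at 120 kPa reaches 1.44 for TEAD3 and for LATS2. The share of all genes that lie on the same side of 1 in every pair was not computed. At 10 kPa same-numbered libraries did not deviate together, so the pairing there is by number only.

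**Figure D4:**
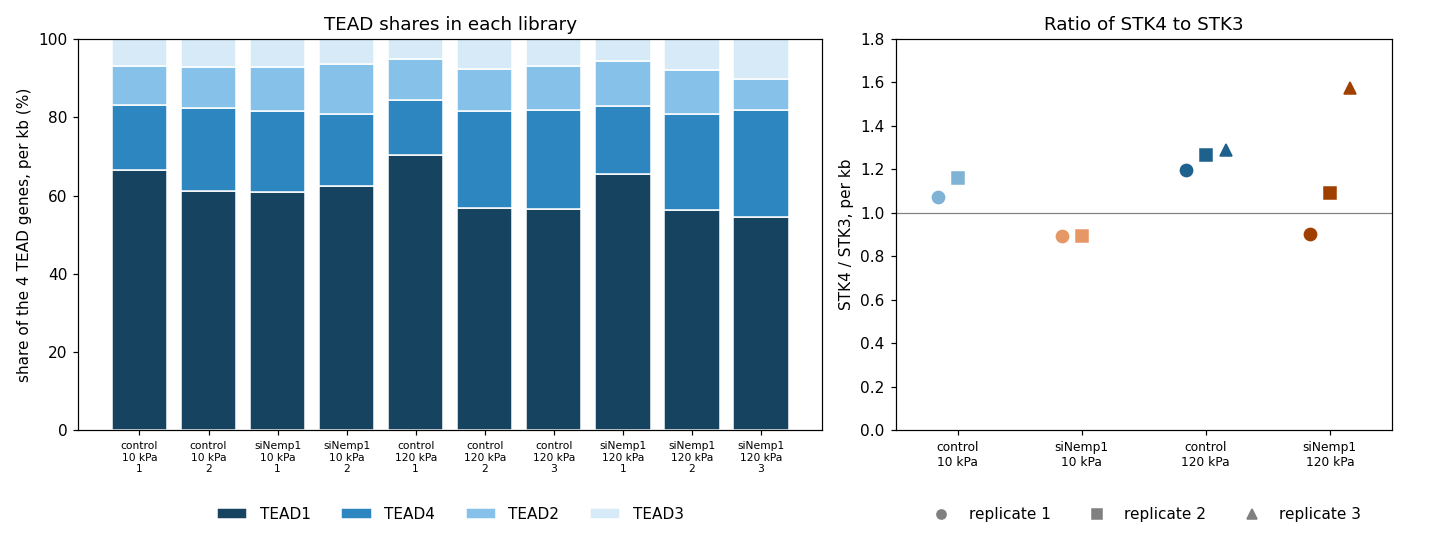
Left, share of each TEAD in the sum of the 4 TEADs per kb (vertical axis, percent) in each of the 10 libraries; right, ratio of STK4 to STK3 per kb by group (line at 1), with shapes for replicate numbers. With median transcript lengths TEAD1 makes up more than 50% in every library (32.1% to 48.7% with the longest), and 4 of 5 siNemp1 libraries have an STK4 to STK3 ratio below the controls of the same stiffness.

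LATS1 and LATS2, the kinases that phosphorylate YAP and TAZ, showed no common direction. LATS1 had 13.7 and 12.5 CPM in control and 13.9 and 9.09 CPM in siNemp1 cells at 10 kPa, and 12.3, 11.1 and 9.73 against 10.9, 10.4 and 10.6 CPM at 120 kPa, with overlap at both. LATS2, which is itself a YAP target, had 6.95 and 9.49 CPM in control and 7.63 and 6.31 CPM in siNemp1 cells at 10 kPa. At 120 kPa LATS2 had 6.29, 7.05 and 6.78 CPM in control and 7.37, 7.48 and 9.73 CPM in siNemp1 cells. There all 3 siNemp1 libraries were above all 3 controls, as they were for 10.9% of all genes. The log2 change of LATS2 at 120 kPa was 0.29 ± 0.19 (adjusted p = 0.45 by edgeR) and 0.11 ± 0.19 without the siNemp1 library numbered 3. That library also had 12 counts of the antisense RNA LATS2-AS1, against at most 2 in the others, beside 225 counts of LATS2. At 10 kPa the change was −0.23 ± 0.23 for LATS2 and −0.19 ± 0.21 for LATS1. The average changes were 0.03 ± 0.15 for LATS2 (−0.05 ± 0.14 without the siNemp1 library numbered 3 at 120 kPa) and −0.12 ± 0.14 for LATS1, and the ratio of LATS1 to LATS2 per kb ran from 1.41 to 2.56 over the 10 libraries. The change of LATS2 differed between the stiffnesses by 0.52 ± 0.29 (95% interval −0.13 to 1.17), and that of TEAD3 by 0.57 ± 0.44, and neither passed (adjusted p = 1.00 by edgeR). Both genes were highest in the siNemp1 library numbered 3 at 120 kPa. Under the alternative fits the difference between the stiffnesses ran from 0.28 to 0.72 for LATS2 and from 0.24 to 0.78 for TEAD3. None of the 10 genes passed in this comparison, in which 0.00715% of all genes were called (1 gene). At an unadjusted p under 0.05 it had 0 of the 10 and 235 of all genes, and DESeq2 called 3 of all genes.

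The second question was whether substrate stiffness changes these transcripts. None of the 10 genes passed in control or in siNemp1 cells or on average, and the levels of several members were somewhat lower at 120 kPa. By edgeR's quasi-likelihood test the comparison of stiffnesses called 0.0143% of 13990 genes in control (2 genes), 0% in siNemp1 and 0% on average. With the block it also called 0% on average. Unadjusted p under 0.05 held for 1, 0 and 2 of the 10 genes, TEAD1 in control and WWTR1 and TEAD1 on average, against 569, 1655 and 2200 of all genes. DESeq2 called 12, 98 and 497 of all genes.

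TEAD1 was lower in each of the 3 control libraries at 120 kPa than in both at 10 kPa, with a log2 change of −0.30 ± 0.11 (95% interval −0.56 to −0.05, adjusted p = 0.99 by edgeR). In siNemp1 cells, whose TEAD1 level was already 51.1 and 51.6 CPM at 10 kPa, it was −0.09 ± 0.11. WWTR1 was lower at 120 kPa by a similar amount in both treatments, −0.27 ± 0.14 in control and −0.22 ± 0.14 in siNemp1, and the groups did not overlap in either. Without the siNemp1 library numbered 3 at 120 kPa the latter was −0.13. On average over treatments the change was −0.24 ± 0.10 for WWTR1 and −0.20 ± 0.08 for TEAD1 (adjusted p = 0.27 and 0.28 by edgeR). With the replicate block fitted at 120 kPa only, both genes passed (0.019 and 0.037), and with the block at both stiffnesses neither did (0.48 and 0.40).

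YAP1 lay lower at 120 kPa in control cells, 33.7 ± 0.558 CPM (mean ± SD, n = 3) against 37.1 ± 0.453 (n = 2). The libraries did not overlap, as for 11.9% of all genes, and its log2 change of −0.14 ± 0.11 (± SE) did not pass. Averaged over treatments it was −0.09 ± 0.08. TEAD2 changed by −0.14 ± 0.18 in control and −0.26 ± 0.18 in siNemp1 (−0.20 ± 0.13 on average), and TEAD3 by −0.34 ± 0.31 in control. For the kinases the values were −0.25 ± 0.19 for LATS1 and −0.29 ± 0.21 for LATS2 in control. In siNemp1 cells LATS2 had 0.23 ± 0.21 (0.06 ± 0.20 without the library numbered 3 at 120 kPa) and STK3 −0.21 ± 0.16. On average the changes were −0.18 ± 0.14 for LATS1 and −0.18 ± 0.12 for STK3. STK4 lay at 56.7 ± 0.373 CPM at 10 kPa and 57.3 ± 5.93 at 120 kPa (mean ± SD) in control cells.

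**Figure D5:**
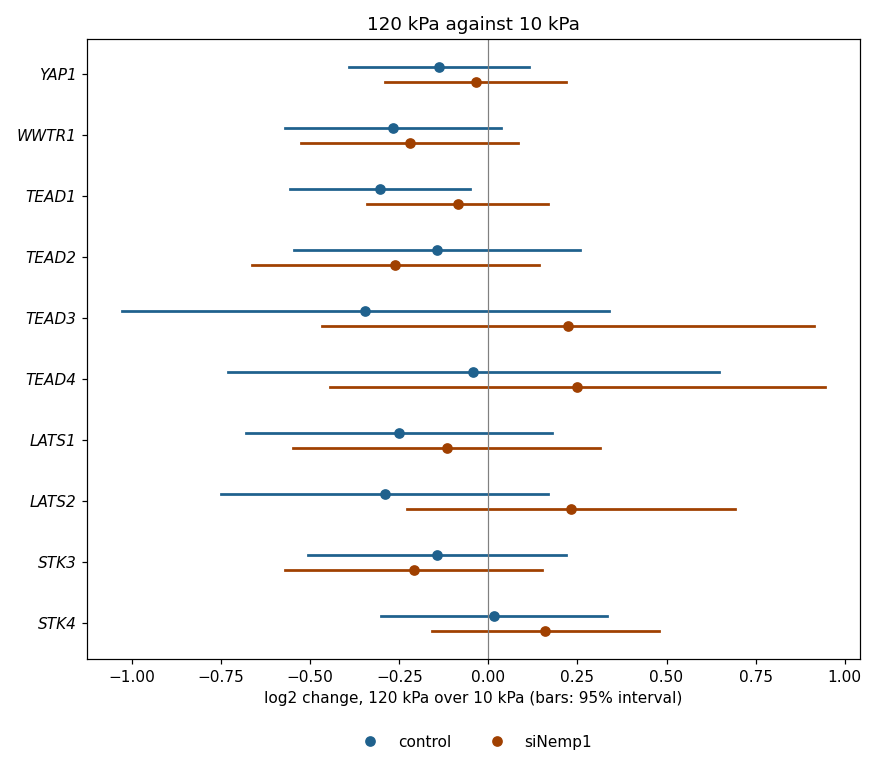
Log2 change of 120 kPa over 10 kPa (horizontal axis) for each gene in control and in siNemp1 cells, from the fit of all libraries, with 95% intervals as bars. The TEAD1 interval in control cells, −0.56 to −0.05, is the only one that does not reach 0.

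Complete separation of the libraries was common in these small groups, and its background is needed to read it. At 10 kPa siNemp1 was lower than control without overlap in 7 of the 10 genes, against 28.5% of all genes tested, and at 120 kPa in YAP1 and TEAD1, against 6.95%. Control cells were lower at 120 than at 10 kPa without overlap in 6 of the 10 genes, against 11.9% of all genes, and siNemp1 cells in 3 (WWTR1, TEAD1 and TEAD2), against 15.5%. With DESeq2's size factors these counts were 6, 3, 5 and 3. No such background was computed for genes that moved the same way in every same-numbered pair. The 10 genes were measured in the same libraries and are not independent of each other.

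Genes around this core were counted in 5 lists. In the fit without the block, 0 genes of any list passed at either stiffness, and on average 1 did: YWHAE, a 14-3-3 protein of the family that holds phosphorylated YAP in the cytoplasm, which rose (log2 change 0.51 ± 0.10, adjusted p = 0.048 by edgeR). That call was lost with DESeq2's size factors (0.055), with upper-quartile scaling (0.053) and in 7 of the 10 fits that left out 1 library (0.036 to 0.33 over the 10). It held with DESeq2 (0.00053) and with the block. The changes that follow, on average and at 120 kPa, are from the blocked fit, which called 10.8% and 8.75% of all genes. Apart from YWHAE, none of these genes passed without the block.

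Among 30 tested scaffolds and activators of the pathway 5 fell and 0 rose, with a list median of −0.14 on the log2 scale against −0.00 over all genes. Those with the smallest p were the phosphatase PTPN14, which binds YAP (−0.32 ± 0.07, adjusted p = 0.020), the giant cadherin FAT1 (−0.32 ± 0.08, 0.028), NF2, whose product merlin activates LATS kinases (−0.27 ± 0.07, 0.031), and the kinase TNIK (−0.38 ± 0.10, 0.034). NF2 lay at 176 and 178 CPM in control and 144 and 152 CPM in siNemp1 cells at 10 kPa. At 120 kPa NF2 had 152, 157 and 151 CPM in control and 133, 125 and 122 CPM in siNemp1 cells, with no overlap at either stiffness. Of all genes tested, 28.5% at 10 kPa and 6.95% at 120 kPa were lower in siNemp1 without overlap, and the share at both was not computed. Without the block these 4 had adjusted p between 0.066 and 0.12.

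Inhibitors of the pathway and STRIPAK, a phosphatase complex that acts on STK3 and STK4, moved in both directions. Of 26 tested genes 4 rose and 2 fell on average (list median −0.03), and 4 rose and 1 fell at 120 kPa. The STRIPAK genes PDCD10 (0.51 ± 0.08, adjusted p = 0.0081) and MOB4 (0.42 ± 0.10, 0.023) rose on average, while STRIP2 (−0.46 ± 0.09, 0.015) and the LIM protein gene LIMD1, whose product restrains LATS (−0.42 ± 0.11, 0.039), fell. FGFR1OP2 rose at 120 kPa (0.45 ± 0.11, 0.032). PDCD10 lay at 21.7 and 21.0 CPM in control and 27.8 and 26.6 CPM in siNemp1 cells at 10 kPa, and at 27.2, 25.9 and 38.5 against 47.0, 42.9 and 54.2 CPM at 120 kPa.

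Among 20 tested genes of YAP and TAZ binding and turnover 2 rose and 5 fell on average, with a median of −0.07. YWHAE rose (0.51 ± 0.09, adjusted p = 0.0093), and the deubiquitinase gene USP9X (−0.34 ± 0.07, 0.014) fell. At 120 kPa BTRC, a subunit of the ubiquitin ligase that marks YAP and TAZ, fell as well (−0.61 ± 0.13, 0.018). The other riser, OTUB2, had a mean of 1.15 CPM, too low to give its change weight. Among 14 tested TEAD co-factors 3 fell and 0 rose (median −0.22), among them the chromatin remodelling gene SMARCA4 (−0.50 ± 0.11, 0.017) and the coactivator gene NCOA1 (−0.36 ± 0.10, 0.043).

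YAP and TAZ targets are genes such as CCN1 and CCN2 that these co-activators switch on. Of 22 tested targets, which include LATS2, PTPN14 and AMOTL2, 4 fell and 0 rose on average (CCDC80, PTPN14, MYOF and DOCK5), and the median was 0.04 on the log2 scale. CCN2, one of the most used readouts of YAP, had 29.5 and 24.6 CPM in control and 33.9 and 30.9 CPM in siNemp1 cells at 10 kPa. At 120 kPa CCN2 had 28.5, 28.2 and 42.4 CPM in control and 30.7, 42.0 and 67.6 CPM in siNemp1 cells, so it was higher in siNemp1 in each same-numbered pair. Its average change of 0.38 ± 0.21 without the block and 0.36 ± 0.11 with it did not pass (adjusted p = 0.35 and 0.057 by edgeR). Those of CCN1 (0.36 ± 0.43, 0.69) and ANKRD1 (0.30 ± 0.25, 0.55) without the block did not pass either. With the block CCN1 had 0.34 ± 0.36 (0.61) and ANKRD1 0.25 ± 0.10 (0.13).

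Genes whose levels ran most like those of a member were taken from the 9651 genes averaging 5 CPM or more, by the root mean square difference of log2 CPM over the 10 libraries after subtraction of each gene's mean. TEAD1 was closest to FAT1 (0.035) and WNK1 (0.042), YAP1 to TAF1D (0.043) and NR2F2 (0.049), and WWTR1 to CNN2 (0.045) and RTN3 (0.048). STK3 was closest to SNX13 (0.048) and CAND1 (0.055), and STK4 to OGA (0.073) and NOC3L (0.074). TEAD3 was closest to EPHA2 (0.082) and SMOX (0.094), and TEAD4 to OSGIN1 (0.075) and EPHA2 (0.092). The closest genes were TXNDC5 (0.068) and NT5DC2 (0.070) for TEAD2, CTBP1-DT (0.080) and APBB2 (0.10) for LATS1, and SLC20A2 (0.10) and FLCN (0.11) for LATS2. Between members the closest pairs were YAP1 with TEAD1 (0.097), WWTR1 with TEAD2 (0.11), YAP1 with STK4 (0.14), WWTR1 with TEAD1 (0.14) and TEAD3 with TEAD4 (0.16). A small distance can also come from genes that vary little. YAP1 and STK4, with SDs of 0.118 and 0.138 log2 CPM, had a Pearson correlation of only 0.32. For TEAD3 and TEAD4 the correlation was 0.89. These distances share the depth and makeup of the same 10 libraries.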

How the data were processed

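Salmon 1.80 (version as written there), Trimmomatic 0.33, FastQC 0.11.9, edgeR and the GRCh38 build are named in the submitters' processing notes. The sources used here do not give the annotation, the transcript-to-gene step or strandedness. The authors deposited expected counts, that is estimated counts per gene without scaling between libraries, which were rounded. All 10 columns matched a title. Genes passing edgeR's filterByExpr (13990) were scaled by TMM and fitted with 1 mean per group over all 10 libraries (edgeR 4.0.16, R 4.3.3, quasi-likelihood with robust dispersion, 6 residual degrees of freedom, two-sided, Benjamini-Hochberg over all genes, adjusted p under 0.05). The SE is the log2 change over the root of its F, and 95% intervals use t quantiles.

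Deviations from group means correlated between same-numbered libraries at 120 kPa (0.426, 0.157 and 0.359 over genes) but not at 10 kPa (0.0171). A replicate block (4 residual degrees of freedom), with the same effect per number at both stiffnesses, was an alternative. So were a block at 120 kPa only, DESeq2 1.42.0, other scalings, filters, only the groups compared, and each library left out. Positions and transcript lengths came from GENCODE 29, promoters from RefSeq (GRCh38.p14). The fits were tested on simulated data that held no effect of the replicate number and larger changes than those of the 10 genes. That test does not show how the fits do with such an effect or with small changes. The members, the lists and the named genes (members, NEMP1, up to 4 called genes per list, CCN1, CCN2, ANKRD1, 2 closest genes per member) were chosen with earlier results of these data known. A few genes of these lists are not reported here.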

Additional observations from a re-analysis of the deposited data

How the results depend on the processing

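None of the 10 genes was called in the fit of all libraries in any of 7 comparisons, and 149 of 160 counts of called members under the alternatives were the same. The exceptions were 3 members at 10 kPa in the fit of only the groups compared (YAP1, WWTR1 and TEAD1), 2 there with upper-quartile scaling and 1 with DESeq2's size factors, both added after the data were seen. Of all genes the first of these fits called 17.3% (2308 genes), and the other 2 called 2315 and 2225 genes. On average over stiffnesses 1 member, TEAD1, was called by DESeq2, with the replicate block, with the replicate block at 120 kPa only and, added later, with the block under upper-quartile scaling (adjusted p = 0.027) or DESeq2's size factors (0.038) and without the pair numbered 1 (0.023) or 3 (0.033). Of all genes DESeq2 called 9.73%, the replicate block 10.8% and the block at 120 kPa only 3215 genes. The fits added later in which TEAD1 passed called between 1454 and 2493 genes. With the block at 120 kPa only, 2 members (WWTR1 and TEAD1) were called between stiffnesses on average, as were 2708 of all genes. Leaving out each library in turn kept the average TEAD1 change between −0.33 and −0.25. The replicate block changed the call of no other member.

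Of the log2 changes printed, 1073 values under the alternatives kept sign and side of the threshold, 15 passed it in addition (the calls above) and 11 uncalled values changed sign. LATS2 on average was −4.69e-05 with upper-quartile scaling, between −0.083 and 0.14 with a library left out, and −0.049 in the blocked fit without the pair numbered 3, where STK4 was 0.0056 without the pair numbered 1. With a library left out, LATS1 on average reached from −0.29 to 0.0044 and TEAD3 from −0.25 to 0.012, and at 10 kPa LATS1 from −0.52 to 0.072 and LATS2 from −0.45 to 0.0015. STK3 at 120 kPa was −0.018 to 0.23. Changes whose estimate from the fit of all libraries is not printed are outside these counts, and some of them also changed sign. At 120 kPa the change of STK4 did so in 13 of 23 alternatives, that of TEAD4 in 6 and that of TEAD3 in 3. The difference between the stiffnesses for WWTR1 did so in 8 of 22. Counts over all genes moved far more: at 120 kPa from 0 to 642 with DESeq2, 643 without a filter, 1224 with the block and 2854 with the block at 120 kPa only; at 10 kPa from 0 to 2308 in the fit of only those groups; and on average from 180 to 0 with DESeq2's size factors and 1504 with the block. Low counts limit TEAD3, where counting error alone is 12.1% at 68 counts.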

Other observations

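At 120 kPa several members differed by replicate number in both treatments. STK3 was 24.5 and 26.4 CPM in the control and siNemp1 libraries numbered 1, 20.1 and 22.4 in those numbered 2, and 18.7 and 19.8 in those numbered 3. TEAD4 was 6.34 and 7.23 CPM in the libraries numbered 1, 12.2 and 10.7 in those numbered 2, and 12.6 and 13.1 in those numbered 3. The YAP target CCN1 was 38.1 and 49.5, 103.8 and 109.4, and 119.5 and 227 CPM in the same order, and the mitochondrial share of the counts 1.73% and 1.06%, 1.40% and 0.826%, and 0.913% and 0.709%. The labels do not say what a replicate number means.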
